A study of Mus musculus with 12 samples.

Results

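The 32 genes of cholesterol synthesis, transport and control described here were followed in mouse astrocytes after stroke. They were taken by symbol from tables of 48709 genes, where all 32 were found, and fall into 18 synthesis enzymes, 7 control genes, and 7 genes of transport, lipoproteins and esterification. The set does not hold every gene of the pathway. All 32 passed the filter on low counts, with a lowest value of 40 counts (Lpl in 1 library).

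Cholesterol is built from acetyl-CoA through mevalonate and squalene, and the later enzymes turn lanosterol into cholesterol. When sterols in the endoplasmic reticulum are low, SCAP escorts the SREBP proteins to the Golgi, where they are cut into transcription factors of the synthesis genes, and the INSIG proteins hold SCAP back when sterols are plentiful. In the brain, which receives little cholesterol from blood, astrocytes make much of the sterol and load it onto apolipoprotein E through ABC exporters, and the LXR receptors for oxidised sterols switch on those export genes and Srebf1.

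The 12 libraries came from C57BL/6 mice aged 90 to 120 days, with 6 mice giving 1 library from each hemisphere at 24 h of tMCAO, a stroke model in which the artery that feeds much of 1 hemisphere is blocked for a while. The 4 groups of 3 libraries are the contralateral and the ipsilateral (occluded) side of mice 296, 297 and 474, labelled wild-type (WT below) and given corn oil, and the same sides of mice 295, 298 and 300, labelled Astro-KO (KO below) and given tamoxifen. Both kinds of mice carried Gfap-CreERT2+/- and were homozygous for floxed alleles, which the recombinase deletes. The recombinase is driven by the Gfap promoter and acts once tamoxifen is given, so drug and deletion cannot be told apart. RNA came from cells selected for ACSA-2, an astrocyte surface antigen.

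Totals were 11187723 to 15780600 counts per library, of which the 32 genes took 0.485 to 1.12%. Levels are given in CPM, counts scaled to library size, and in TPM where genes are compared, since TPM is also per length. Group names follow the labels, and KO below means "labelled KO". Xist, the RNA of the inactive X chromosome, had 4 and 8 counts in the libraries of mouse 296 and 9140 or more in the other 10, and Nsdhl and Ebp of the set are X-linked.

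Markers of other cells were present in the selected cells, and several lists moved with the groups. Astrocyte markers (10 genes) summed to 8645 to 12239 TPM in contralateral and 5780.1 to 7874 TPM in ipsilateral WT libraries, and to 13944 to 16080.4 and 10882 to 15076 TPM in the same KO libraries. Oligodendrocyte markers (12 genes) summed to 12242 to 18974 TPM in the 6 WT libraries and 4664 to 11319.9 TPM in the 6 KO libraries. Microglia and macrophage markers (9 genes) summed to 522 to 842 TPM in contralateral and 1449.9 to 2083 TPM in ipsilateral WT libraries, and ranged from 474 to 3515 TPM over the KO libraries. Neuron markers (8 genes) summed to 191 to 521 TPM in the 6 WT libraries and 75.1 to 159 TPM in the 6 KO libraries. Pericyte and smooth muscle markers (6 genes) summed to 1026 to 1158 TPM contralaterally and 593 to 873 TPM ipsilaterally in WT mice, where 2 of the 6 fell, and to 900.1 to 1483 TPM over the KO libraries. Oligodendrocyte precursor markers (6 genes) summed to 29.0 to 32.8 TPM contralaterally and 20.2 to 24.6 TPM ipsilaterally in WT mice. They summed to 29.1 to 44.6 TPM over the KO libraries. Endothelial markers (8 genes) ranged from 1322 to 2350.4 TPM and neutrophil markers (6 genes) from 14.6 to 519 TPM over all 12 libraries. Of the neutrophil markers 1 or 2 were at 0 counts in 10 libraries, and no marker of the other lists was at 0 in any. Their part in the results was not tested, and in bulk RNA fewer cells of a type and less RNA per cell cannot be told apart.

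**Figure D1:**
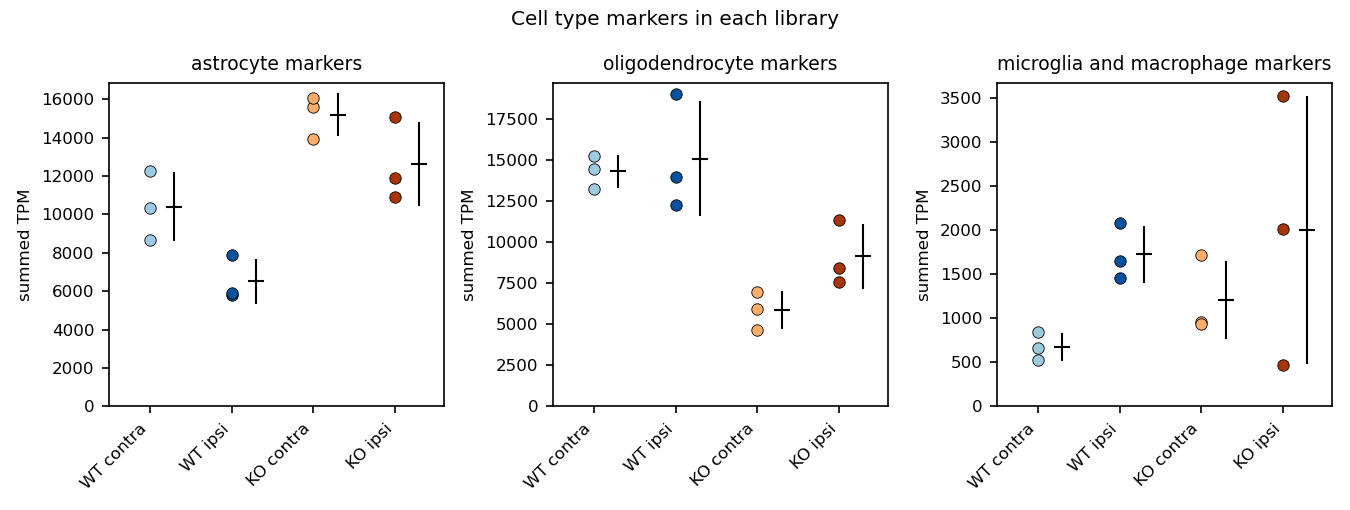
Summed TPM of marker genes of astrocytes, oligodendrocytes, and microglia and macrophages, 1 point per library in the 4 groups, with the group mean and SD. The 6 KO libraries lie below every WT library for oligodendrocyte markers, and ipsilateral KO mouse 300 lies lowest of all for microglia and macrophage markers (474 TPM).

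Promoter windows of 300 bases (250 before and 50 after the start, RefSeq, GRCm38.p6) were found for 26 of the 32 genes. The CCAAT box, searched as CCAAT on both strands and known as the site of the factor NF-Y, was in the window of 14 of 15 synthesis enzymes (93.3%), 4 of 7 control genes and 2 of 4 transport genes, against 41.1% of all 27025 genes with a window. The sterol regulatory element core, searched as TCACNCCAC on both strands, was in 1 of 26 (Hmgcs1), against 1.44% of genes. The LXR element was searched only in a strict form, an exact repeat of 1 short sequence with any 4 bases between the copies. That form was in none of the 26 and in 4 of all 27025. Imperfect forms were not searched, so whether these windows hold other LXR elements was not tested. A match is only a description of these letters. The 4 windows below were chosen after the values were seen: Hmgcs1, which holds the core, and 3 enzymes whose levels differed between hemispheres of WT mice. Capitals mark the CCAAT box on either strand (ATTGG on the other one) and, in Hmgcs1, the core TCACCCCAC. They lie at chr13:119690101-119690400 (plus strand, Hmgcs1), chr19:6067801-6068100 (minus strand, Tm7sf2), chrX:72918271-72918570 (plus strand, Nsdhl) and chr1:169969156-169969455 (minus strand, Hsd17b7).

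Hmgcs1: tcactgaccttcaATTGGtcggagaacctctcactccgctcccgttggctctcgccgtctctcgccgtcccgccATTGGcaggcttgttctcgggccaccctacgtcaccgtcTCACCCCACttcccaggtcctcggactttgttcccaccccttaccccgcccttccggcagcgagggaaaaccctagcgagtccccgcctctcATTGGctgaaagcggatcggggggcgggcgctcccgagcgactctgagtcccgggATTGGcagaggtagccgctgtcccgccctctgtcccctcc
Tm7sf2: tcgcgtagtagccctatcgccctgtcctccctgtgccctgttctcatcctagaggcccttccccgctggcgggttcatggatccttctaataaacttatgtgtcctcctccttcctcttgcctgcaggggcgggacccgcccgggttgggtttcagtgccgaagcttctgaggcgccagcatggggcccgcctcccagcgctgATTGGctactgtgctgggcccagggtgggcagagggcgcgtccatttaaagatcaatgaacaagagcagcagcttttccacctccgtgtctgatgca
Nsdhl: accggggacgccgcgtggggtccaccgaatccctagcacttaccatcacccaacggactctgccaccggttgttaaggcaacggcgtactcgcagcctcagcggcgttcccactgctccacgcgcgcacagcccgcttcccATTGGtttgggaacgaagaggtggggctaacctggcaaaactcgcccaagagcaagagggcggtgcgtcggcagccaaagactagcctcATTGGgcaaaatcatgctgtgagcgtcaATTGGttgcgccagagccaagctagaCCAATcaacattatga
Hsd17b7: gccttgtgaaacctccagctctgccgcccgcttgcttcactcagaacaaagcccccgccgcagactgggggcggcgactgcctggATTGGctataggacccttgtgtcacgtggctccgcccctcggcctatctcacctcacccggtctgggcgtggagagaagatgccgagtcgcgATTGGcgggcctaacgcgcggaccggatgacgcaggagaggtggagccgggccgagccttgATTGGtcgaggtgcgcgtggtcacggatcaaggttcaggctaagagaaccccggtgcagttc

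The Nsdhl and Hmgcs1 windows hold 4 CCAAT boxes each, that of Hsd17b7 holds 3, and that of Tm7sf2 holds 1. In Hmgcs1 the core overlaps none of the boxes.

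Per length, Apoe was the highest of the 32 genes in all 4 groups, at 8978 ± 1079.9 TPM (SD, n = 3) in contralateral WT libraries. Srebf1, the gene of SREBP-1, came next there at 374 ± 10.5 TPM, followed by Lcat at 289 ± 164 TPM, Srebf2 at 194 ± 23.0 TPM and Insig1 at 193 ± 10 TPM, and the last 3 did not differ beyond their spread. Lpl was the lowest there at 3.59 ± 2.79 TPM. The 18 synthesis enzymes together took 1133 to 1459 TPM in every library of the series, while the 7 transport genes, dominated by Apoe, took 3239.8 to 13336 TPM. The summed level of the synthesis genes spanned a narrower range than that of the transport genes. Exons of Fdft1 share 774 bases with Ctsb, those of Cyp51 share 166 with Akap9 and those of Srebf1 share 109 with Rai1, on opposite strands.

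**Figure D2:**
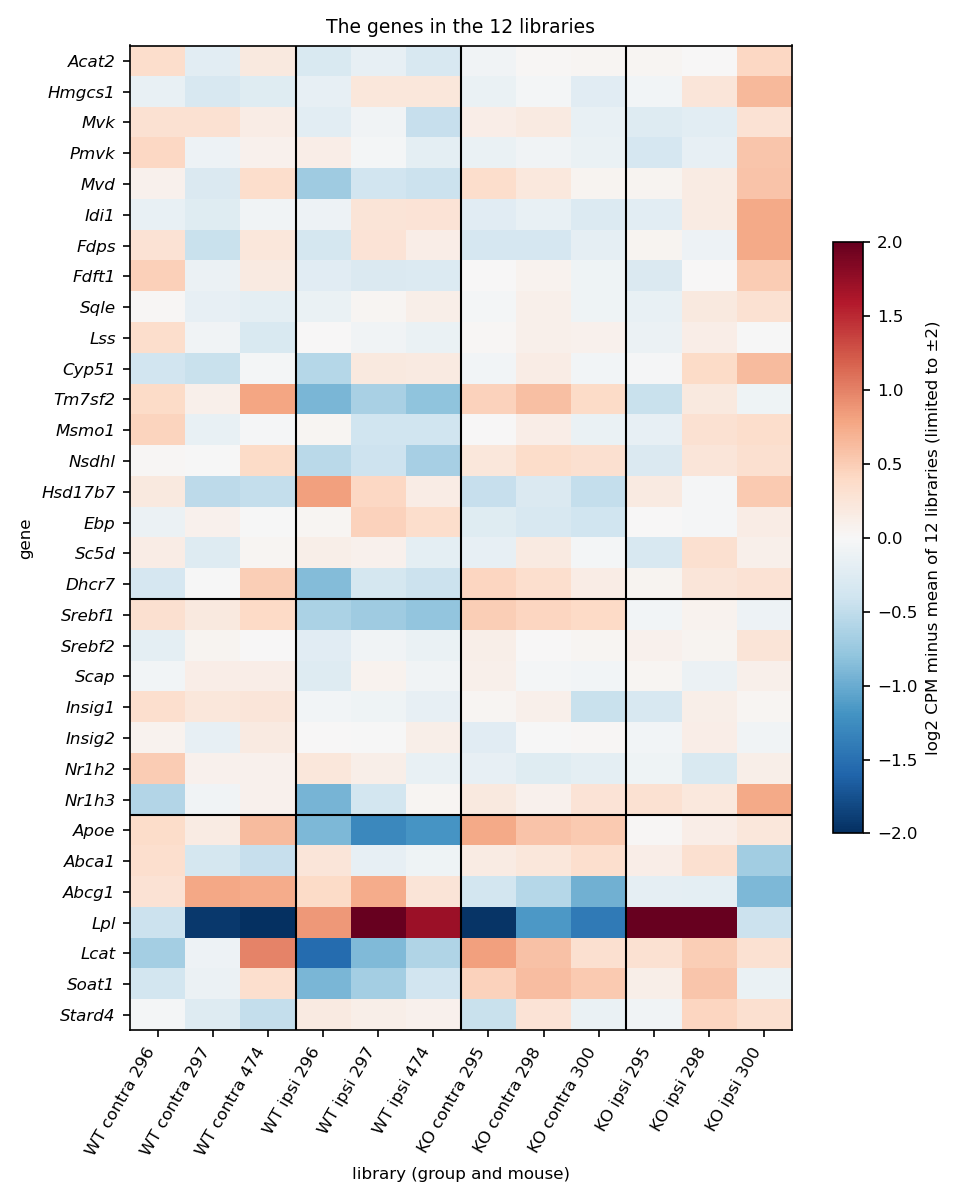
Log2 CPM of each of the 32 genes in each of the 12 libraries, as the difference from that gene's mean over all libraries, ordered by role, with colours limited to 2 either way. Apoe, Srebf1 and Tm7sf2 are lowest in the 3 ipsilateral WT libraries, and 9 of the 18 synthesis enzymes are highest in ipsilateral KO mouse 300 (3 of 18 on TPM).

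In WT mice the occluded hemisphere was compared with the opposite one, which shows how these genes stood at 24 h. Of the 32 genes, 8 (25%) were called at an edgeR adjusted p of 0.05, against a background of 19.2% of all 15571 genes tested, so the share is close to that of all genes. Of the 8, 2 rose (9.61% of all genes did) and 6 fell (9.54% did). Apoe, Srebf1 and the sterol reductase gene Tm7sf2 fell, each with every ipsilateral library below every contralateral one, while Lpl rose. The median log2 change of the 32 genes was -0.16 and that of all genes was -0.06. The libraries of the sides did not overlap for 12 members (37.5%), against 34.0% of all genes.

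Among the synthesis enzymes 3 fell and 1 rose. Tm7sf2 (ENSMUSG00000024799, chromosome 19, 6062821 to 6068373, mm10), the enzyme that reduces the C14 double bond of sterol intermediates, was read at 33.6, 27.5 and 44.1 CPM contralaterally and 13.6, 16.3 and 14.6 CPM ipsilaterally. Every ipsilateral library lay below every contralateral one, and the log2 change was -1.24 ± 0.20 (edgeR adjusted p = 0.00252). Its exons share 532 bases with Vps51 on the same strand, and the strand of counting is not given in the sources used here.

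Nsdhl (ENSMUSG00000031349, chromosome X, 72918557 to 72958514), which removes a carbon at C4 and is X-linked, was read at 43.3, 42.5 and 55.7 CPM contralaterally and 29.3, 32.1 and 27.0 CPM ipsilaterally. The sides did not overlap, with a log2 change of -0.68 ± 0.17 (edgeR adjusted p = 0.0169). Dhcr7 (ENSMUSG00000058454, chromosome 7, 143823145 to 143848410), the last reductase on the way to cholesterol, was read at 61.5, 77.9 and 109 CPM contralaterally and 42.9, 61.3 and 57.9 CPM ipsilaterally. Its sides did not overlap and its call lay close to the threshold (log2 change -0.62 ± 0.20, edgeR adjusted p = 0.0496).

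Hsd17b7 (ENSMUSG00000026675, chromosome 1, 169949535 to 169969241), the 3-ketosteroid reductase that acts after Nsdhl, moved the other way. It was read at 29.6, 17.9 and 18.6 CPM contralaterally and 45.7, 34.4 and 28.5 CPM ipsilaterally, so the highest contralateral library lay within the ipsilateral range (log2 change 0.72 ± 0.23, edgeR adjusted p = 0.0487). The other 14 enzymes were not called. Among them, log2 changes ran from -0.58 ± 0.19 for Mvd, the mevalonate diphosphate decarboxylase (edgeR adjusted p = 0.0562, DESeq2 adjusted p = 0.0345), to 0.35 ± 0.18 for Hmgcs1, the synthase of the step before mevalonate (edgeR adjusted p = 0.187). Enzymes of 1 pathway therefore stood on both sides of 0, with 7 of 18 positive and 11 negative.

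Of the control genes, 1 of 7 fell. Srebf1 (ENSMUSG00000020538, chromosome 11, 60199089 to 60222581) was read at 668, 607 and 703 CPM contralaterally and 344, 325 and 309 CPM ipsilaterally. The sides did not overlap and the spread within each was small (log2 change -1.02 ± 0.13, edgeR adjusted p = 0.000898). Srebf2, which encodes SREBP-2, the form that acts chiefly on cholesterol synthesis genes, was read at 272, 324 and 311 CPM contralaterally and 266, 295 and 284 CPM ipsilaterally. Those ranges overlapped (log2 change -0.10 ± 0.12, edgeR adjusted p = 0.597). Insig1, the sterol-sensing retention factor, was read at 196, 182 and 183 CPM contralaterally and 149, 146 and 138 CPM ipsilaterally. Its sides did not overlap, but it was not called (log2 change -0.37 ± 0.16, edgeR adjusted p = 0.122). The others, Scap, Insig2, Nr1h2 and Nr1h3 (the last 2 encode the LXR receptors), had log2 changes of -0.21 to 0.00.

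Of the transport genes, 2 fell and 1 rose. Apoe (ENSMUSG00000002985, chromosome 7, 19696109 to 19699188), the main lipoprotein of the brain, was read at 5497, 4794 and 6620.0 CPM contralaterally and 2296, 1757 and 1888 CPM ipsilaterally. No library overlapped and the log2 change was -1.51 ± 0.18 (edgeR adjusted p = 0.000898). Beside it, 7 of the 10 astrocyte markers fell, with a median log2 change of -0.76, and 1 of the 9 microglia and macrophage markers rose. Lcat (ENSMUSG00000035237, chromosome 8, 105939551 to 105943382), which esterifies cholesterol on lipoproteins, was read at 64.9, 96.1 and 206 CPM contralaterally and 35.5, 56.1 and 68.0 CPM ipsilaterally. Its sides overlapped, and contralateral mouse 474 stood well above the rest (log2 change -1.20 ± 0.36, edgeR adjusted p = 0.0352).

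Lpl (ENSMUSG00000015568, chromosome 8, 68880491 to 68907448), the lipoprotein lipase, was read at 14.5, 5.08 and 3.31 CPM contralaterally and 35.6, 151 and 63.7 CPM ipsilaterally. The sides did not overlap and the rise was 3.45 ± 0.75 on the log2 scale (edgeR adjusted p = 0.00958). Microglia and macrophage markers summed to 842, 662 and 522 TPM in the same contralateral libraries and 1449.9, 2083 and 1644 TPM in the ipsilateral ones, the same order over the 3 mice on each side. In KO mice, given below, the orders differed on both sides. Whether Lpl came from those cells was not tested. Abca1, the main exporter of cholesterol to lipoproteins, was read at 457, 283 and 262 CPM contralaterally and 429, 323 and 341 CPM ipsilaterally, and those ranges overlapped (log2 change 0.13 ± 0.26, edgeR adjusted p = 0.770). Soat1, which stores cholesterol as esters in the cell, was not called (log2 change -0.62 ± 0.21, edgeR adjusted p = 0.0617), but passed in DESeq2 (adjusted p = 0.0350) and with the mouse as a block (edgeR adjusted p = 0.00858). Stard4, a carrier of free sterol, passed with the block as well (log2 change 0.38 ± 0.19, edgeR adjusted p = 0.189, with the block 0.0372).

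The falls of Apoe, Srebf1 and Tm7sf2 held in all 9 fits that left out a library or a mouse. Lpl lost its call without mouse 297 (edgeR adjusted p = 0.123) and without mouse 474 (0.0557). Nsdhl lost it without contralateral 474 (0.0850), ipsilateral 474 (0.0503), mouse 297 (0.0638) and mouse 474 (0.143), and kept it without mouse 296. Lcat and Hsd17b7 held only without contralateral 296, ipsilateral 474 or mouse 296 and lost it in the other 6 fits (edgeR adjusted p up to 0.204 and 0.244), and Dhcr7 held only without contralateral 296 or mouse 296 (up to 0.267 in the other 7). Log2 changes kept their sign, and ranged from -1.51 to -0.56 for Lcat, from -0.79 to -0.33 for Dhcr7 and from 0.53 to 0.99 for Hsd17b7.

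**Figure D3:**
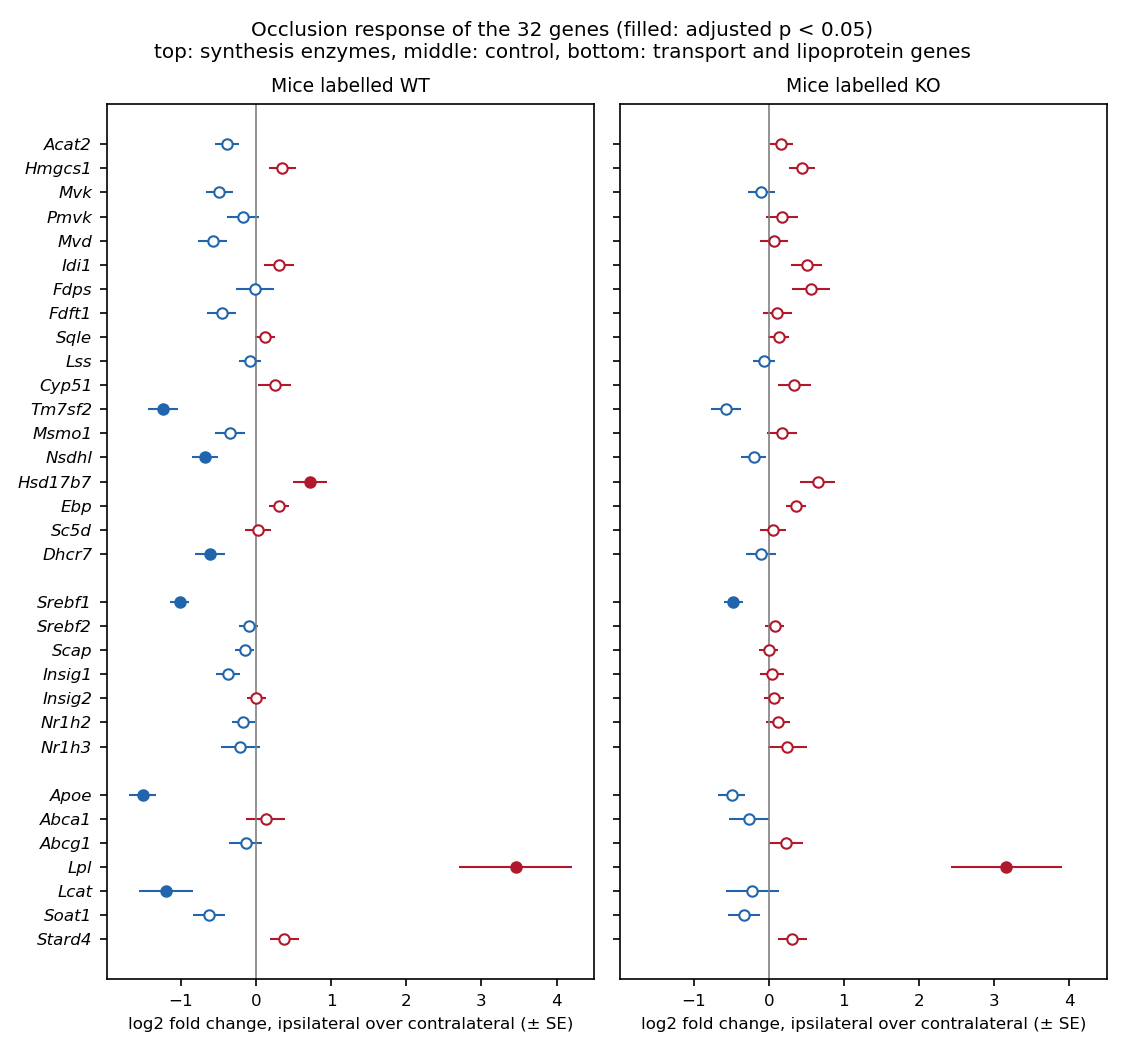
Log2 fold change of ipsilateral against contralateral libraries for each of the 32 genes, in WT and in KO mice, with bars of 1 SE, ordered by role. In WT mice Apoe (-1.51), Tm7sf2 (-1.24) and Srebf1 (-1.02) lie far below 0, and in KO mice they lie nearer to it (-0.49, -0.57 and -0.47), a difference that the interaction test of edgeR did not call.

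In KO mice the same comparison asks how the occluded side differed after tamoxifen. Lpl, which rose, and Srebf1, which fell, were the 2 of 32 genes called (6.25%), against a background of 6.29% of all genes, 5.45% higher and 0.841% lower. Libraries of the sides did not overlap for 7 members (21.9%), a smaller share than the 38.8% of all genes. The median log2 change was 0.09, and -0.01 over all genes, and on TPM with limma these were -0.09 and -0.17, so the members' median lay above that of all genes under both scalings. No synthesis enzyme passed.

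Srebf1 was read at 751, 717 and 700.4 CPM contralaterally and 512, 559 and 495 CPM ipsilaterally. The sides did not overlap, and the fall was smaller than in WT mice (log2 change -0.47 ± 0.12, edgeR adjusted p = 0.0452). Lpl was read at 4.99, 8.75 and 7.31 CPM contralaterally and 83.9, 90.3 and 14.5 CPM ipsilaterally. Mice 295 and 298 lay about as high as WT ipsilateral libraries, and mouse 300 far lower (log2 change 3.16 ± 0.74, edgeR adjusted p = 0.0303). Microglia and macrophage markers in those 3 ipsilateral libraries summed to 3515, 2006 and 474 TPM, lowest in the same mouse. They were highest in mouse 295, whereas Lpl was highest in mouse 298. In the 3 contralateral libraries the markers summed to 1722, 958 and 939 TPM, highest in mouse 295, where Lpl was lowest. Srebf1 kept its call in 1 of the 9 left-out fits (without ipsilateral 298) and otherwise had an edgeR adjusted p of 0.0904 to 0.295. Lpl kept it in 2 (without ipsilateral 298 and without ipsilateral 300) and otherwise had 0.0946 to 0.243.

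Apoe was read at 7213, 6339 and 6166 CPM contralaterally and 4337, 4671 and 5005 CPM ipsilaterally. The sides did not overlap, yet the change was not called by edgeR (log2 change -0.49 ± 0.18, edgeR adjusted p = 0.112), though DESeq2 called it (adjusted p = 0.0191). Tm7sf2 was read at 35.1, 38.7 and 33.3 CPM contralaterally and 18.9, 29.4 and 24.1 CPM ipsilaterally, with no overlap (log2 change -0.57 ± 0.20, edgeR adjusted p = 0.102). Hsd17b7 was read at 18.7, 21.1 and 18.5 CPM contralaterally and 29.1, 25.4 and 37.0 CPM ipsilaterally, again with no overlap (log2 change 0.65 ± 0.23, edgeR adjusted p = 0.108), and it passed with the mouse as a block (0.0317). Apoe and Tm7sf2 thus stood apart by side in both kinds of mice, and in KO mice neither passed in edgeR.

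The other named control and export genes were not called by side in KO mice. Srebf2 was read at 337, 313 and 318 CPM contralaterally and 329.8, 322 and 369.5 CPM ipsilaterally (log2 change 0.08 ± 0.12, edgeR adjusted p = 0.715). Insig1 was read at 159, 166 and 114 CPM and at 124, 169 and 159 CPM (log2 change 0.04 ± 0.16, edgeR adjusted p = 0.897). Abca1 was read at 406, 424 and 456 CPM and at 395, 452 and 224 CPM, where 224 CPM, in mouse 300, is the lowest of all 12 libraries (log2 change -0.26 ± 0.26, edgeR adjusted p = 0.543).

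The synthesis enzymes of the 3 KO mice went different ways. In mouse 300, 15 of the 18 enzymes were higher ipsilaterally, with a median log2 difference of 0.49, against 7 of 18 in mouse 295 (median -0.15) and 10 of 18 in mouse 298 (median 0.06). In the WT mice 3, 10 and 7 of 18 were higher ipsilaterally (mice 296, 297 and 474; medians -0.37, 0.06 and -0.26). Ipsilateral mouse 300 held the highest of all 12 values for 9 of the 18 enzymes, among them Hmgcs1 at 309.7 CPM, Idi1, the isomerase of the isoprenoid steps, at 87.8 CPM, Fdft1, the squalene synthase, at 188 CPM and Cyp51, the lanosterol demethylase, at 127 CPM. On TPM it was the highest for 3 of the 18, and 13 of 18 were higher ipsilaterally in mouse 300 (median log2 difference 0.14). In the same library microglia and macrophage markers were lowest of the 12, and oligodendrocyte markers, at 11319.9 TPM, were the highest of the 6 KO libraries. The counts of enzymes given here by mouse and library were not made over all genes, so no share of all genes stands beside them.

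On the contralateral side the libraries labelled KO and WT were compared, which asks for a difference away from the occlusion. Abcg1, which was lower, was the 1 gene of 32 called (3.13%), against a background of 1.50% of all genes, 0.0835% higher and 1.41% lower. Member libraries did not overlap for 6 genes (18.75%), against 24.5% of all genes. The median log2 difference was 0.02, and -0.00 over all genes, and on TPM with limma 0.15 and 0.12.

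Abcg1 (ENSMUSG00000024030, chromosome 17, 31057675 to 31117988), an exporter that passes cholesterol to lipoprotein particles, was read at 59.7, 83.4 and 81.8 CPM in WT and 38.0, 32.9 and 25.2 CPM in KO libraries. The groups did not overlap (log2 difference -1.23 ± 0.23, edgeR adjusted p = 0.0226). Oligodendrocyte markers summed to 13203 to 15224 TPM in the same WT and 4664 to 6967 TPM in the same KO libraries, and 5 of those 12 were lower. The deposited count of Abcg1 is 0.557 of the reads that its RPKM and its exon length imply, for a reason that was not tested. That share is lower still for the synthesis enzymes Fdps (0.395) and Sc5d (0.478). The call of Abcg1 held without contralateral WT 296 (edgeR adjusted p = 0.0224), mouse 296 (0.0201), mouse 474 (0.0475) and contralateral KO 295 (0.0420). It was lost in the other 8 left-out fits (edgeR adjusted p of 0.0685 to 0.169).

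The 2 next smallest p-values were not calls. Nr1h2, which encodes LXR beta, was read at 135, 101 and 100.5 CPM in WT and 84.3, 80.1 and 82.9 CPM in KO libraries, without overlap (log2 difference -0.44 ± 0.16, edgeR adjusted p = 0.224). Soat1 was read at 101, 119.9 and 165 CPM in WT and 178, 199 and 186 CPM in KO libraries, without overlap (log2 difference 0.55 ± 0.21, edgeR adjusted p = 0.271). None of the 18 synthesis enzymes passed (log2 differences -0.34 to 0.29). Apoe (log2 difference 0.22 ± 0.18, edgeR adjusted p = 0.569) and Srebf1 (0.13 ± 0.12, edgeR adjusted p = 0.624) did not pass either, at levels given above.

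On the ipsilateral side 7 of the 32 genes were called (21.9%), 6 higher and 1 lower in KO libraries, against a background of 6.31% of all genes. The background was 4.33% for higher and 1.98% for lower. This comparison shares the ipsilateral WT libraries with the WT comparison of sides, and the ipsilateral KO libraries with the KO one. The groups did not overlap for 12 members (37.5%), against 23.9% of all genes. The median log2 difference was 0.20, and 0.02 over all genes.

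Of the synthesis enzymes 2 were higher. Mvd (ENSMUSG00000006517, chromosome 8, 122433601 to 122443422) was read at 14.7, 18.4 and 17.8 CPM in WT and 24.96, 27.1 and 35.6 CPM in KO libraries. The groups did not overlap (log2 difference 0.79 ± 0.19, edgeR adjusted p = 0.0348). Nsdhl, at 29.3, 32.1 and 27.0 CPM in WT, was read at 35.0, 50.2 and 53.1 CPM in KO libraries, without overlap (log2 difference 0.65 ± 0.17, edgeR adjusted p = 0.0426). Dhcr7 (0.73 ± 0.20, edgeR adjusted p = 0.0514) and Tm7sf2 (0.70 ± 0.20, edgeR adjusted p = 0.0596) were close to the threshold and not called by edgeR, and DESeq2 called both (adjusted p = 0.0134 and 0.0194). Of the 18 enzymes 16 had a positive difference, and 25 of all 32 genes did. With limma on TPM 19 of 32 did, and the median was 0.09 (-0.06 over all genes).

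Srebf1, at 344, 325 and 309 CPM in WT, was read at 512, 559 and 495 CPM in KO libraries. The groups did not overlap (log2 difference 0.68 ± 0.12, edgeR adjusted p = 0.0122). The other control genes were not called by edgeR. Nr1h3, which encodes LXR alpha, had the largest difference of them, at 7.01, 10.4 and 13.8 CPM in WT and 16.6, 15.5 and 22.6 CPM in KO libraries (0.81 ± 0.26, edgeR adjusted p = 0.0876, DESeq2 adjusted p = 0.0333). Srebf2 differed by 0.27 ± 0.12 on the log2 scale (edgeR adjusted p = 0.216) and Insig1 by 0.06 ± 0.16 (edgeR adjusted p = 0.872).

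Of the transport genes, 3 were higher and 1 lower. Apoe, at 2296, 1757 and 1888 CPM in WT, was read at 4337, 4671 and 5005 CPM in KO libraries, with no overlap (log2 difference 1.24 ± 0.18, edgeR adjusted p = 0.00659). Lcat, at 35.5, 56.1 and 68.0 CPM in WT, was read at 128, 146 and 128 CPM in KO libraries, with no overlap (1.33 ± 0.36, edgeR adjusted p = 0.0473). Soat1 (ENSMUSG00000026600, chromosome 1, 156424525 to 156474331) was read at 68.9, 81.5 and 99.7 CPM in WT and 142, 190.0 and 118 CPM in KO libraries, with no overlap (0.85 ± 0.22, edgeR adjusted p = 0.0387). All 3 were lower in the WT ipsilateral libraries than in every KO library of that side.

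Abcg1 was again lower, at 63.6, 82.4 and 58.4 CPM in WT and 43.3, 42.7 and 26.3 CPM in KO libraries (log2 difference -0.86 ± 0.23, edgeR adjusted p = 0.0448). The groups did not overlap. Astrocyte markers were higher in KO ipsilateral libraries, 8 of 10 with a median log2 difference of 0.99, and 3 of the 12 oligodendrocyte markers were lower. Abca1 was not called (-0.03 ± 0.26, edgeR adjusted p = 0.962), and Lpl, at a wide spread in both groups, differed by -0.40 ± 0.67 (edgeR adjusted p = 0.779).

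Leaving out single libraries or mice ended most of these calls, while the log2 differences kept their sign (Apoe 1.16 to 1.36, Srebf1 0.62 to 0.72, Mvd 0.60 to 0.90, Nsdhl 0.52 to 0.82, Soat1 0.63 to 1.02, Lcat 1.11 to 1.57, Abcg1 -0.97 to -0.68). Calls over all genes also fell in 10 of the 12 fits, from 983 to 0 without mouse 297 and 65 without ipsilateral WT 297, and rose to 1168 without ipsilateral WT 474 and 1351 without mouse 474. Apoe lost its call in 1 of 12 fits, without mouse 297 (edgeR adjusted p = 0.0659). Srebf1 lost it in 5, without ipsilateral WT 297 (0.0642) and without mouse 297 (0.0898), 295 (0.0521), 298 (0.0592) or 300 (0.0515). Mvd (up to 0.164) and Abcg1 (up to 0.216) held only without ipsilateral WT 474 or mouse 474, and Nsdhl only without ipsilateral KO 295 or mouse 295 (up to 0.194). Soat1 held only without ipsilateral WT 474, ipsilateral KO 300 or mouse 474 (up to 0.184), and Lcat only without ipsilateral WT 474, mouse 296 or mouse 474 (up to 0.177).

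**Figure D4:**
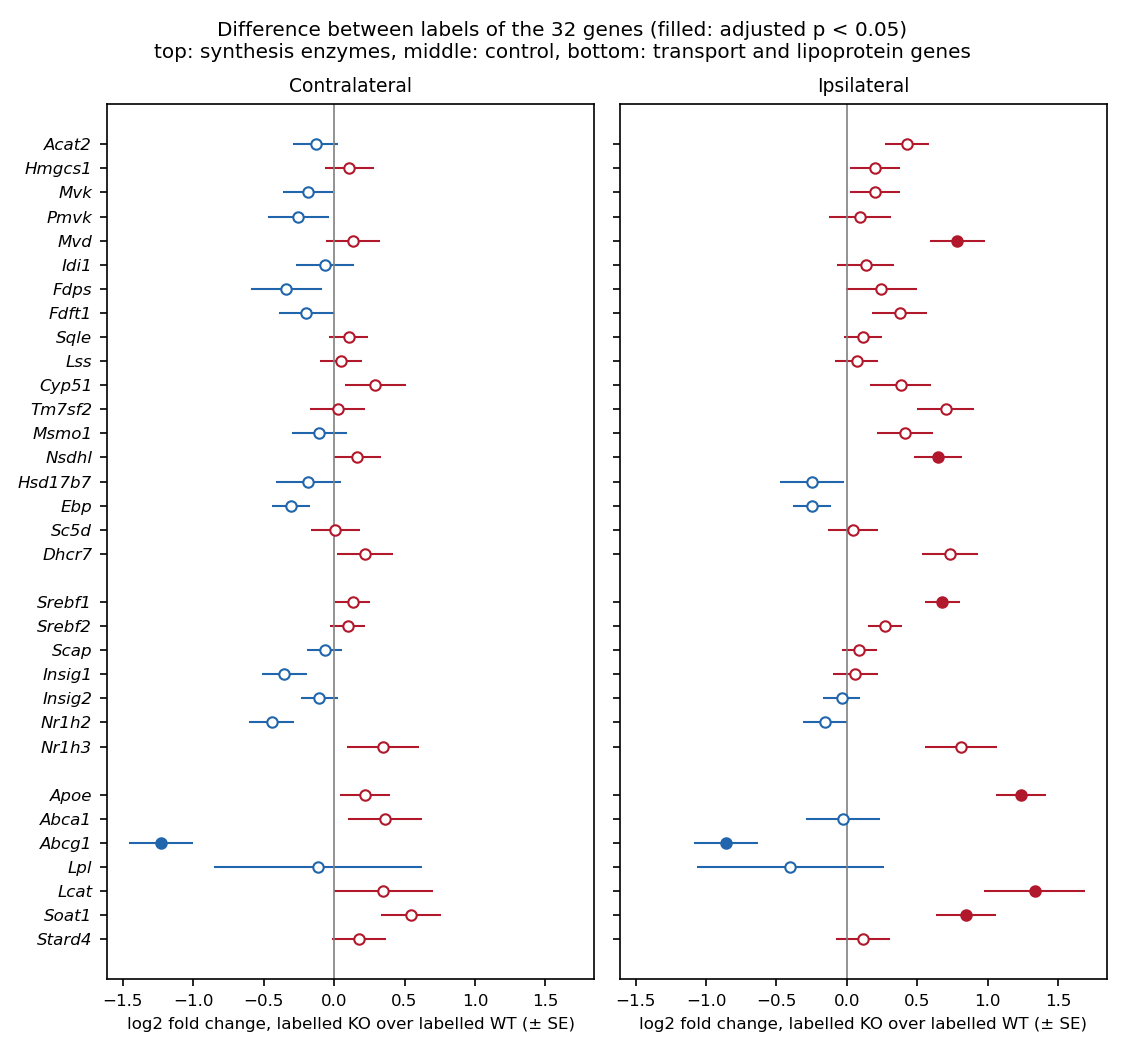
Log2 fold change of libraries labelled KO against those labelled WT for each of the 32 genes, on the contralateral and on the ipsilateral side, with bars of 1 SE, ordered by role. Abcg1 lies below 0 on both sides (-1.23 and -0.86), and Apoe (1.24) and Lcat (1.33) lie highest ipsilaterally.

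Whether the side difference itself differed between WT and KO mice was tested by the interaction. No gene of the 32 and none of all 15571 (0.00%) was called by edgeR. At an unadjusted p under 0.05 stood 5 of the 32 genes (15.6%) and 763 of all genes (4.90%). The 5 were Apoe (log2 difference of changes 1.02 ± 0.25), Srebf1 (0.55 ± 0.18), Acat2, which makes acetoacetyl-CoA (0.56 ± 0.22), Tm7sf2 (0.68 ± 0.28) and Mvd (0.65 ± 0.27), each at an edgeR adjusted p = 0.948. The DESeq2 alternative called Apoe (adjusted p = 0.00265) and Srebf1 (adjusted p = 0.0128), and 20 of all genes. Across the comparisons, DESeq2 gave no adjusted p for some values of members, and where it did so it adjusted over fewer genes than edgeR. In the edgeR fit 28 of the 32 differences were positive (median 0.32, and 0.06 over all genes), but with limma on TPM 18 of 32 were (median 0.06, and -0.16 over all genes). The median of the members lay above that of all genes under both scalings.

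**Figure D5:**
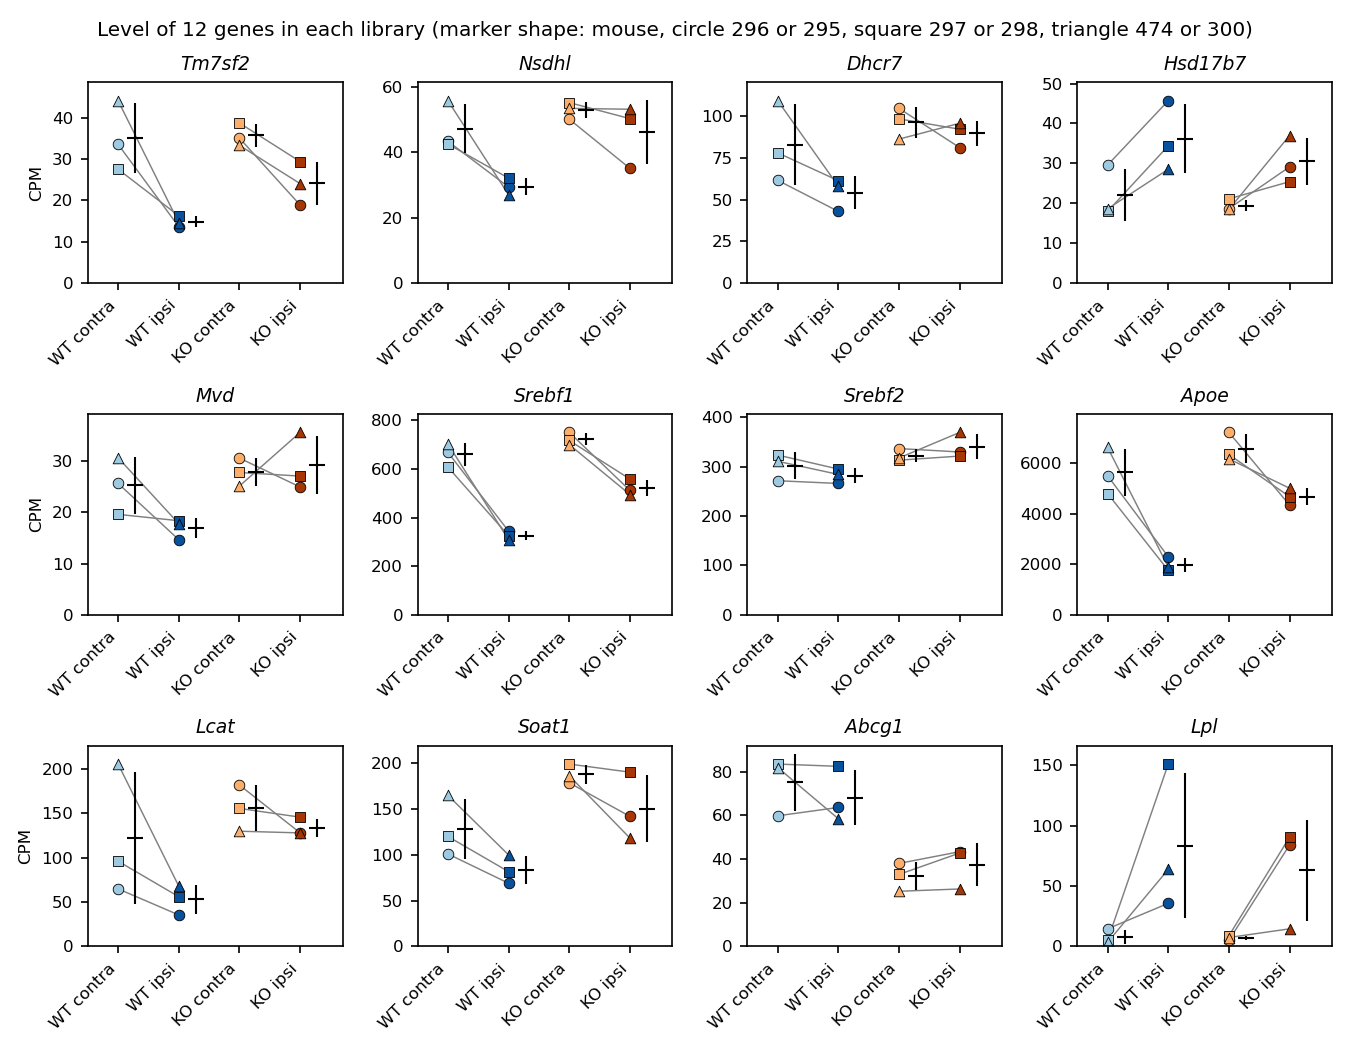
CPM of genes named in the text in each of the 12 libraries, 1 point per library in the 4 groups, with the group mean and SD and a line joining the sides of a mouse. For Apoe and Srebf1 the 3 ipsilateral WT libraries lie below the other 9, and for Abcg1 the 6 KO libraries lie below the 6 WT ones.

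Other genes of sterol and lipid metabolism show the neighbouring pathways. Of 20 other sterol genes, 2 fell in the WT comparison of sides, a share near the 9.54% of all genes that fell. These were Cyp46a1, the 24-hydroxylase that makes the exportable brain oxysterol, from 41.2 ± 12.8 to 15.0 ± 2.32 CPM (SD, n = 3; log2 change -1.46 ± 0.22 SE, edgeR adjusted p = 0.00201), and the sterol exporter Abcg4, from 25.4 ± 5.60 to 11.4 ± 0.996 CPM (-1.15 ± 0.18, edgeR adjusted p = 0.00248). In KO mice Abcg4 fell, from 34.3 ± 2.78 to 21.4 ± 3.62 CPM (-0.68 ± 0.18, edgeR adjusted p = 0.0471), and 19 of the list were not called (0.841% of all genes were called lower). On the contralateral side none of the 20 was called between KO and WT. Ipsilaterally 4 of the 20 were called, against 6.31% of all genes. Abcg4 (0.91 ± 0.18, edgeR adjusted p = 0.0170) and Cyp46a1 (0.89 ± 0.22, edgeR adjusted p = 0.0339) were higher in KO libraries, and the lipoprotein receptor gene Vldlr (-0.90 ± 0.16, edgeR adjusted p = 0.0120) and the oxysterol-binding protein gene Osbp (-0.39 ± 0.10, edgeR adjusted p = 0.0494) were lower.

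Of 11 fatty acid synthesis genes, which SREBP-1 is known to drive, 3 fell in the WT comparison of sides, against 9.54% of all genes. Acss2, which makes acetyl-CoA from acetate, went from 139.9 ± 14.2 to 72.6 ± 10.1 CPM (SD, n = 3; log2 change -0.95 ± 0.18 SE, edgeR adjusted p = 0.00501). The desaturase gene Fads1 (-0.77 ± 0.17, edgeR adjusted p = 0.00970) and its neighbour Fads2 (-1.22 ± 0.30, edgeR adjusted p = 0.0157; overlapping sides) fell as well. None of the 11 was called in KO mice by side, or contralaterally between KO and WT. The same 3 were higher in KO libraries ipsilaterally, against 4.33% of all genes: Fads1 (0.83 ± 0.17, edgeR adjusted p = 0.0174), Fads2 (1.38 ± 0.30, edgeR adjusted p = 0.0212) and Acss2 (0.71 ± 0.18, edgeR adjusted p = 0.0358). Both comparisons use the ipsilateral WT libraries, in which these genes were lowest on average.

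Over all 5 comparisons 11 of the 32 genes were called in at least 1 and 21 in none. The same count was not made over all genes, of which the WT comparison of sides by itself called 19.2%. The 11 comprise 5 of the 18 synthesis enzymes (Tm7sf2, Nsdhl, Dhcr7, Hsd17b7 and Mvd), Srebf1, and Apoe, Lcat, Lpl, Soat1 and Abcg1. Apoe, Srebf1, Nsdhl and Lcat were called lower ipsilaterally in WT mice and higher in KO than in WT libraries on that side, and the 2 calls share the ipsilateral WT libraries. Lpl and Srebf1 were called by side in both kinds of mice. Such overlaps of calls were not counted over all genes.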

How the data were processed

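RNA of ACSA-2-selected cells was sequenced (Illumina HiSeq, per the labels' protocols) and a table per library deposited. The authors' expression values are whole numbers, used here as read counts; TPM and RPKM stand beside them in the deposited tables. Per the submitters' processing notes the genome was mm10. The aligner, the counter and its strand setting are unstated in the labels and headers.

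Counts were tested with edgeR 4.0.16 (R 4.3.3): filterByExpr (minimum count 10) left 15571 genes, scaled by TMM, in a robust quasi-likelihood fit over 12 libraries with 1 term per group and 8 residual degrees of freedom. Benjamini-Hochberg adjustment ran over every gene tested, and 0.05 was the threshold of a call. The SE (log2 change over root F) is approximate. CPM use the scaled library sizes. P-values rest on the spread between libraries within the 4 groups (3 mice each), pooled in 1 fit and drawn toward that of other genes. The main fit treats the 2 libraries of a mouse as independent. Alternatives were RLE scaling, no filter, DESeq2 1.42.0, limma 3.58.1 on log2(TPM + 1) or log2(TPM + 0.1) where 3 libraries reached 1 TPM, the mouse as a replicate block, only the 2 groups compared, and each library or mouse left out. The 2 libraries of a mouse are paired by animal; their deviations from the group means correlated at 0.03 to 0.68 over 14038 genes. No 2 libraries of a group were duplicates. On simulated data for the WT comparison of sides (15571 genes) 57% of 2-fold and 87% of 4-fold changes were recovered.

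The members, lists, and tests were chosen with earlier results of these data known. Genes with a call, 5 control and export genes, and the 3 smallest p-values where fewer than 3 were called are given by library, apart from Acat2 in the interaction. Gene positions are from GENCODE M21. The level of the gene targeted by the floxed alleles is not reported here.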

Additional observations from a re-analysis of the deposited data

How the results depend on the processing

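With only the 2 groups compared in the fit, 5 of the 32 genes were called in the WT comparison of sides (8 with all groups). In KO against WT ipsilaterally 2 were called (7 with all groups). Calls over all genes fell as well, from 2982 to 1579 and from 983 to 196. With no filter on low counts none was called in the KO comparison of sides (2 with the filter). Over all genes 837 of 22548 were called there (979 of 15571 with the filter). With limma on TPM, at either pseudocount, 1 was called in the KO comparison of sides. In KO against WT 0 were called contralaterally (1 with edgeR) and 3 ipsilaterally. Over all 16367 genes of that fit, these comparisons gave 552, 149 and 685 calls at a pseudocount of 1 (979, 233 and 983 with edgeR). The calls at a pseudocount of 0.1 were 534, 140 and 676. DESeq2 called 2 in the interaction (Apoe and Srebf1), where edgeR called 0, and added Mvd and Soat1 in the WT comparison of sides, Apoe in the KO one, and Tm7sf2, Dhcr7 and Nr1h3 in KO against WT ipsilaterally; it also called more of all genes (3827 against 2982, 2057 against 979 and 1753 against 983). Leaving out a library or mouse gave 3 to 9 calls in the WT comparison of sides, 0 to 3 in the KO one, 0 to 1 contralaterally, 0 to 8 ipsilaterally and 0 in the interaction. Over all genes the same fits gave 659 to 3610, 2 to 2282, 0 to 391, 0 to 1351 and 0 calls. With the mouse as a replicate block (4 residual degrees of freedom) 10 members were called by side in WT mice (Soat1 and Stard4 added). In KO mice 3 were called by side (Hsd17b7 added), and 0 in the interaction. No other call of a member changed with the block. It also called more of all 15571 genes, 4641 against 2982 in WT mice and 2498 against 979 in KO mice. KO against WT lies between mice, so no block could be fitted there. The causes were not tested. No called value changed sign. Of the values of single genes under an alternative, 2526 kept direction and call, 133 lost the call, 24 gained one, and 235 uncalled ones changed sign. With limma on TPM the median of all genes moved from -0.01 to -0.17 in the KO comparison of sides, from -0.00 to 0.12 contralaterally and from 0.06 to -0.16 in the interaction. With 3 mice per group and 11187723 to 15780600 counts per library, genes as low as Lpl (40 to 1874 counts) are the least precise.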
